A study of Mus musculus with 12 samples.

Results

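The comparison described here set colons of mice with dextran sulfate sodium (DSS) colitis against colons of mice with trinitrobenzene sulfonic acid (TNBS) colitis. Both groups carried the label wild type, and both received normal saline, the vehicle arm of a study of thymopentin. There were 3 RNA-seq libraries in each group, here called DSS saline 1 to 3 and TNBS saline 1 to 3. The series holds 12 libraries in 4 groups of 3, and the remaining groups were DSS colitis and TNBS colitis treated with thymopentin, a synthetic peptide modelled on the thymic hormone thymopoietin. Every group was a colitis group and no library of untreated mice was analysed here, so a gene that was higher in DSS colitis cannot be told apart from a gene that was lower in TNBS colitis. The sources used here do not state strain, sex, age, doses, days of treatment or the stretch of colon taken. Of the 55335 genes in the table of all genes, 13717 had a mean of at least 1 FPKM (fragments counted on a gene, per unit of transcript length and of library depth) over the 6 saline libraries and formed the set compared. A further 23367 genes were listed at 0 in all 6. Just inside the threshold lay Ptprb at 1.0001 and Hoxd10 at 1.0004 FPKM, and just outside it Defb45 at 0.99963 FPKM.

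DSS is a sulfated polysaccharide, commonly given in drinking water, that injures the colonic epithelium and exposes the mucosa to luminal bacteria. TNBS is a hapten, commonly given into the rectum with ethanol, which opens the mucosal barrier while the hapten modifies host proteins that T cells then recognise. The first is usually described as an epithelial injury that does not need T cells, and the second as a T cell driven inflammation that can extend through the bowel wall. Colon tissue holds colonocytes, goblet cells, hormone secreting cells and the dividing crypt base, and beneath them stroma, vessels, smooth muscle, nerve and immune cells. In bulk tissue, fewer cells of a type and less RNA per cell cannot be told apart.

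The 6 libraries carried the markers of colon. Slc26a3, the chloride exchanger of surface colonocytes, lay between 62.4 and 87.1 FPKM, and Krt20 and Muc2 were at or above 298 FPKM everywhere. The small intestinal enzymes Sis and Lct, the squamous markers Krt5 and Trp63, the muscle myosin Myh4 and Ins2 were each at or below 0.297 FPKM. The squamous marker Krt14 lay between 0.128 and 0.646 FPKM. A list of anal squamous genes summed to 15.1 to 34.3 FPKM in DSS saline. In TNBS saline it summed to 14.9 to 78 FPKM, highest in TNBS saline 3. Other markers of such tissues were present: the muscle genes Acta1 and Ckm lay between 1.98 and 5.02 and between 0.874 and 5.44 FPKM, and the elastase gene Cela1 between 19.9 and 67 FPKM. The neutrophil peroxidase gene Mpo did not exceed 0.0132 FPKM, and S100a8 lay between 0.984 and 4.22 FPKM. Summed FPKM ran from 398072 to 532510.0. The depth estimated from 2 tables of selected genes varied by library between 0.915 and 1.11 relative to the geometric mean of the 6, with 1 FPKM of a typical selected gene worth 134 to 167 reads. Pearson's r across genes was 0.964 to 0.972 within DSS saline, 0.931 to 0.975 within TNBS saline and 0.845 to 0.911 between the groups. TNBS saline 3 stood apart from the other TNBS libraries: the B cell gene Ms4a1 was at 0.181 FPKM there, against 5.28 FPKM in TNBS saline 1, and the posterior gene Hoxb13 was at 0.722 against 50.04 FPKM. Results that turn on this library are given with and without it.

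DSS and TNBS colons differed at 6454 of the genes tested (47.1% by limma at an adjusted p under 0.05, after log2(FPKM + 1)). Fewer genes were called higher in DSS (2159, or 15.7%) than lower (4295, or 31.3%). Among calls of at least 2-fold the directions were nearly even, with 772 higher (5.63%) and 690 lower (5.03%). The FPKM of the 3 and 3 libraries did not overlap for 56.8% of genes, DSS lying above in 19.4% and below in 37.4%. The median log2 fold change over all genes tested was -0.14. Transcripts of the mitochondrial genome made up 27.6 to 32.2% of summed FPKM in DSS saline and 21.2 to 24.2% in TNBS saline, and their part in that shift was not tested. Calls that were higher in DSS made up 33.5% of all calls as deposited, 43.1% after quantile normalization and 51.8% after median-ratio rescaling, which moved the all-gene median to -0.05 and 0.01. Medians of the main lists below are therefore also given relative to all genes tested. Some genes passed the level threshold through 1 group only. Among genes given below with FPKM, those admitted through TNBS saline included Ephb2, Axin2, Nox1 and Mmp7. Those admitted through DSS saline included Il22, Lcn2, Rspo3, Dbp, Tnfrsf17 and Ighg2c. Of 594 genes with a DSS saline mean under 1 FPKM, 406 were called lower, and of 674 with a TNBS saline mean under 1 FPKM, 486 were called higher; a gene that passed through 1 group only was admitted for its level there, so these counts support nothing about direction.

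**Figure D1:**
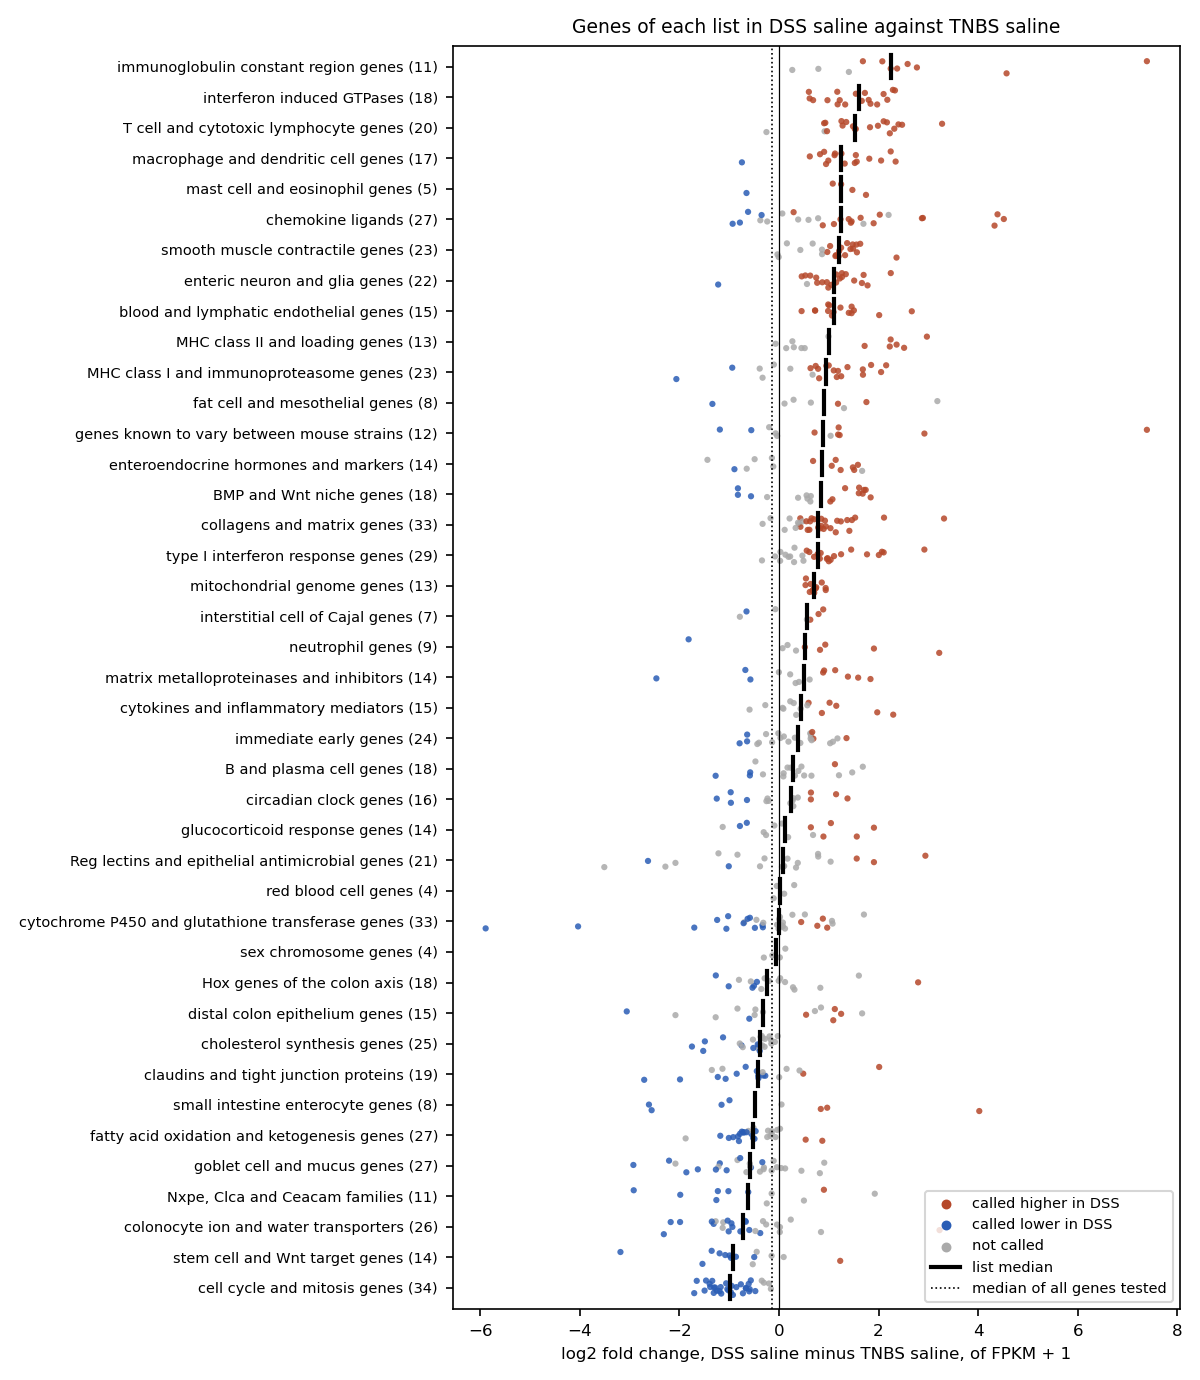
Log2 fold change of FPKM + 1, DSS saline minus TNBS saline, for each tested member of the gene lists with at least 4 tested members; the number of members is in brackets, colours mark the limma calls, black bars are list medians and the dotted line is the all-gene median. Immunoglobulin constant region, interferon GTPase and T cell lists lie farthest to the right, and cell cycle, stem cell and colonocyte transporter lists farthest to the left.

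The interferon induced GTPases were higher in DSS colitis throughout. These guanylate binding proteins and immunity related GTPases are made in most cells after interferon gamma and attack the membranes around intracellular microbes. All 18 tested members of 19 listed were called higher, against the 15.7% of all genes. All 18 also lay above the TNBS libraries without overlap, against 19.4% of all genes. The median log2 fold change of the GTPases was 1.60, or 1.74 relative to all genes. Gbp2, a guanylate binding protein, measured 76.8, 86.9 and 86.4 FPKM in DSS saline 1 to 3 and 20.2, 27.6 and 20.6 FPKM in TNBS saline 1 to 3, a difference of 1.84 ± 0.20 on the log2 scale (SE; limma adjusted p = 0.00012). Tgtp1, a GTPase first found in T cells, measured 38.9, 28.3 and 29.9 against 4.22, 7.04 and 6.4 FPKM, a difference of 2.29 ± 0.24 on the log2 scale (SE; limma adjusted p = 0.0001). The lowest DSS library was thus above the highest TNBS library by a wide margin for both genes. Tgtp1 and its neighbour Tgtp2 are near-identical copies, so the split of reads between them is uncertain. Gbp4, of the same family as Gbp2, measured 10.3, 10.3 and 10.4 against 1.75, 2.6 and 1.45 FPKM, a difference of 1.97 ± 0.16 on the log2 scale (SE; limma adjusted p = 3.3e-05). Igtp, another GTPase of the family, measured 97.1, 77.4 and 69.9 FPKM in DSS and 20.8, 26.5 and 27.5 FPKM in TNBS colons, a difference of 1.66 ± 0.23 on the log2 scale (SE; limma adjusted p = 0.00032).

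Interferons act through transcription factors that bind short elements ahead of the genes they induce. In RefSeq promoters of GRCm38.p6, a build other than that of the deposited table, 11 of the tested GTPases had an entry. The interferon stimulated response element, searched on both strands as GAAA, any pair of bases and GAAA again, in the 250 bases before the start, was found in 10 of them (90.9%), against 3.46% of 27025 genes with an entry. The gamma activated site, searched as TTCNNNGAA, was found in 6 (54.5%), against 8.13% of all genes. The promoters of Gbp2, Tgtp1 and Igtp, chosen after their values were seen, are shown so that these elements can be read beside the values above. Each is written 5′ to 3′ on the strand of the gene, with matches in capitals, and a match is a description of letters only. Gbp2 lies at chr3:142620413-142620662 on the plus strand, Tgtp1 at chr11:48992247-48992496 on the minus strand and Igtp at chr11:58199306-58199555 on the plus strand.
Gbp2: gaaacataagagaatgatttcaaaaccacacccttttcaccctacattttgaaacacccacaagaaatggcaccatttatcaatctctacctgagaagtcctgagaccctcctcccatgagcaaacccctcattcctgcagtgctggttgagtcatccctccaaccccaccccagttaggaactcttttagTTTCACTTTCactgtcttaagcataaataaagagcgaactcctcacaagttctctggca
Tgtp1: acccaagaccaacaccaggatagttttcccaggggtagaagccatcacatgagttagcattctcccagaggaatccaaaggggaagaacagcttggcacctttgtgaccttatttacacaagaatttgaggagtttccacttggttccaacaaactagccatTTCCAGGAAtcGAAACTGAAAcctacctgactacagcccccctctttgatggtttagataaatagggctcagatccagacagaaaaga
Igtp: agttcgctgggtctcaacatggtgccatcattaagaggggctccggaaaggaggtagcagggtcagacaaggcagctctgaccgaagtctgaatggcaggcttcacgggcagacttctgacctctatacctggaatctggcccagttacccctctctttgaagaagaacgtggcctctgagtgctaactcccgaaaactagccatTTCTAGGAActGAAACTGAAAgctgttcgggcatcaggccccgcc
In Gbp2 the capitals mark the response element on the opposite strand. In Tgtp1 and Igtp the first capitals mark the gamma activated site, and the second, close behind, the response element.

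Genes of the type I interferon response were higher in part. 18 of 29 were called higher and none lower, against 15.7% and 31.3% of all genes. The list median was a log2 fold change of 0.78 (0.91 relative to all genes). Ifi27l2a measured 193, 72.6 and 147 FPKM in DSS and 13.9, 17.3 and 16.8 FPKM in TNBS libraries, a difference of 2.92 ± 0.30 on the log2 scale (SE; limma adjusted p = 9.6e-05). Isg15, the ubiquitin-like protein attached to proteins during antiviral responses, measured 239, 96.7 and 142 against 28.4, 42 and 32.5 FPKM, a difference of 2.10 ± 0.29 on the log2 scale (SE; limma adjusted p = 0.00032). DSS saline 1 was the highest library for both genes. Without it, 14 members were called and the median was 0.53. Zbp1, a sensor of left-handed nucleic acids, was more even among DSS colons at 49.1, 41.1 and 50.4 FPKM, against 15.4, 16.5 and 8.56 FPKM, a difference of 1.77 ± 0.27 on the log2 scale (SE; limma adjusted p = 0.0006). Bst2, which tethers budding viruses, and Oas1g had log2 fold changes of 1.001 and 0.98, with adjusted p = 0.0015 and 0.0005. The response element was present before 10 of the 20 members with a promoter entry.

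Antigen presentation genes were mostly higher in DSS colitis for class I and partly for class II. MHC class I molecules display peptides from inside the cell, cut by the immunoproteasome. Of 23 tested class I genes, 16 were called higher and 2 lower, against 15.7% and 31.3% of all genes. B2m, the light chain shared by all class I molecules, measured 3359.9, 3195 and 3496 FPKM in DSS and 1112, 1138 and 891 FPKM in TNBS colons, a difference of 1.68 ± 0.14 on the log2 scale (SE; limma adjusted p = 3.4e-05). The spread within each group was small beside the gap. H2-Q4 (1.69), H2-T23 (0.74), Psmb9 (1.25) and Psme1 (0.95) were also called higher, Psmb9 and Psme1 encoding an immunoproteasome subunit and an activator. MHC class II genes, which display peptides taken up from outside, were divided: 6 of 13 were called higher, 7 were not called, and the median was 0.99 (1.13 relative to all genes), or 0.48 without TNBS saline 3. H2-Aa measured 278, 368 and 326 FPKM in DSS and 52, 71.7 and 17.1 FPKM in TNBS libraries, a difference of 2.97 ± 0.51 on the log2 scale (SE; limma adjusted p = 0.001). H2-Ab1, its beta chain partner, measured 178, 198 and 182 against 42.5, 51.5 and 19.9 FPKM, a difference of 2.36 ± 0.44 on the log2 scale (SE; limma adjusted p = 0.0017). TNBS saline 3 was the lowest library for both, and every DSS library lay above every TNBS library. H2-Eb1, H2-DMa and H2-DMb1 (the DM genes serve peptide loading) had log2 fold changes of 2.24, 1.72 and 2.23. Summed FPKM of the class II list was 1488 to 2014 in DSS saline and 327 to 832 in TNBS saline.

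T cell and cytotoxic lymphocyte genes were higher in DSS colitis. 18 of 20 tested genes were called higher and none lower, against 15.7% and 31.3% of all genes. The list median was 1.53 (1.67 relative to all genes, 1.44 without TNBS saline 3). Cd3g, a chain of the T cell receptor complex, measured 6.08, 8.37 and 7.29 FPKM in DSS and 1.23, 1.51 and 0.567 FPKM in TNBS libraries, a difference of 1.99 ± 0.20 on the log2 scale (SE; limma adjusted p = 9.1e-05). Gzma, a protease of cytotoxic granules, measured 30.5, 63.3 and 55.1 against 5.53, 5.01 and 2.19 FPKM, a difference of 3.28 ± 0.34 on the log2 scale (SE; limma adjusted p = 9.3e-05). Klrd1, a receptor of natural killer and innate-like T cells, measured 9.39, 8.57 and 9.89 against 1.48, 1.13 and 1 FPKM, a difference of 2.23 ± 0.10 on the log2 scale (SE; limma adjusted p = 1.7e-06). For each of these genes the lowest DSS library was several fold above the highest TNBS library. Gzmb and Nkg7, also of cytotoxic granules, had log2 fold changes of 2.47 and 2.17. 10 listed genes, among them the regulator Foxp3 and the pore protein Prf1, were under the level threshold.

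Macrophage and dendritic cell genes moved the same way, with 16 of 17 called higher and 1 lower, against 15.7% and 31.3% of all genes. The list median was 1.25, or 1.39 relative to all genes. C1qa, a chain of the first complement component made by resident macrophages, measured 61, 79.1 and 78.5 FPKM in DSS and 16.4, 18.6 and 7.87 FPKM in TNBS colons, a difference of 2.34 ± 0.29 on the log2 scale (SE; limma adjusted p = 0.00019). C1qb and C1qc had log2 fold changes of 2.24 and 2.05. Mrc1, the mannose receptor, measured 3.41, 4.11 and 4.55 against 1.05, 1.09 and 0.879 FPKM, a difference of 1.32 ± 0.10 on the log2 scale (SE; limma adjusted p = 3e-05), with little spread inside either group. Apoe, a lipid carrier that macrophages secrete, differed by 1.81. The list's summed FPKM was 507 to 709 in DSS saline and 125 to 277 in TNBS saline.

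Chemokines included several of the largest differences in the data. 15 of 27 tested ligands were called higher and 4 lower, against 15.7% and 31.3% of all genes. The list median was 1.24, or 1.37 relative to all genes. Ccl8, a ligand that recruits monocytes and T cells, measured 90.2, 80.8 and 95.7 FPKM in DSS and 3.53, 4.09 and 1.61 FPKM in TNBS libraries, a difference of 4.52 ± 0.34 on the log2 scale (SE; limma adjusted p = 2.8e-05). Ccl5, made by T cells and natural killer cells, measured 66.2, 64.1 and 73.1 against 2.59, 2.7 and 1.65 FPKM, a difference of 4.39 ± 0.18 on the log2 scale (SE; limma adjusted p = 1.4e-06). The ratio of group means was 28.9 for Ccl8 and 29.3 for Ccl5, and the DSS libraries of each lay within a narrow band. Ccl21a, which guides T cells and dendritic cells along lymphatic vessels, measured 200.1, 250.2 and 200.1 against 13.2, 20.6 and 3.09 FPKM, a difference of 4.33 ± 0.48 on the log2 scale (SE; limma adjusted p = 0.00012). Its near-identical copy Ccl21b shares reads with it, and the values of the 2 genes (4.38 for Ccl21b) are uncertain as separate measurements. Ccl7 and Ccl11, ligands for monocytes and eosinophils, differed by 2.89 and 2.87, and Xcl1, a lymphocyte product, by 1.90.

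Immunoglobulin transcripts were far higher in DSS colons, whereas most genes of B cell identity were not called. 8 of 11 constant region genes were called higher, against 15.7% of all genes. The list median was 2.24 (2.38 relative to all genes), or 1.54 without TNBS saline 3. Igkc, the kappa light chain, measured 7785, 4705 and 4901 FPKM in DSS and 1142, 1651 and 299 FPKM in TNBS libraries, a difference of 2.77 ± 0.55 on the log2 scale (SE; limma adjusted p = 0.0023). Igha, the heavy chain of the secreted mucosal antibody, measured 1242, 965 and 1028 against 297, 399.6 and 96.5 FPKM, a difference of 2.24 ± 0.49 on the log2 scale (SE; limma adjusted p = 0.0037). TNBS saline 3 was the lowest for both genes, and no DSS library reached down to a TNBS library. Ighg2b measured 105, 94.3 and 50.1 against 4.08, 4.8 and 0.308 FPKM, a difference of 4.57 ± 0.69 on the log2 scale (SE; limma adjusted p = 0.00055), and Ighg3 differed by 1.69. Constant region genes are similar in sequence, and the assignment of reads among them is uncertain. Of 18 tested B and plasma cell genes, 1 was called higher and 3 lower, against 15.7% and 31.3% of all genes. The median of this list, 0.28, became -0.57 without TNBS saline 3. Tnfrsf17, a receptor of plasma cells, measured 2.64, 3.71 and 2.26 against 1.21, 1.08 and 0.168 FPKM, a difference of 1.12 ± 0.23 on the log2 scale (SE; limma adjusted p = 0.0029). Tnfrsf17 passed the level threshold through DSS saline only, so its gap supports nothing about direction. The 3 lower genes were Sdc1 (-1.27), Xbp1 (-0.58) and Prdm1 (-0.58), which plasma cells share with epithelium.

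**Figure D2:**
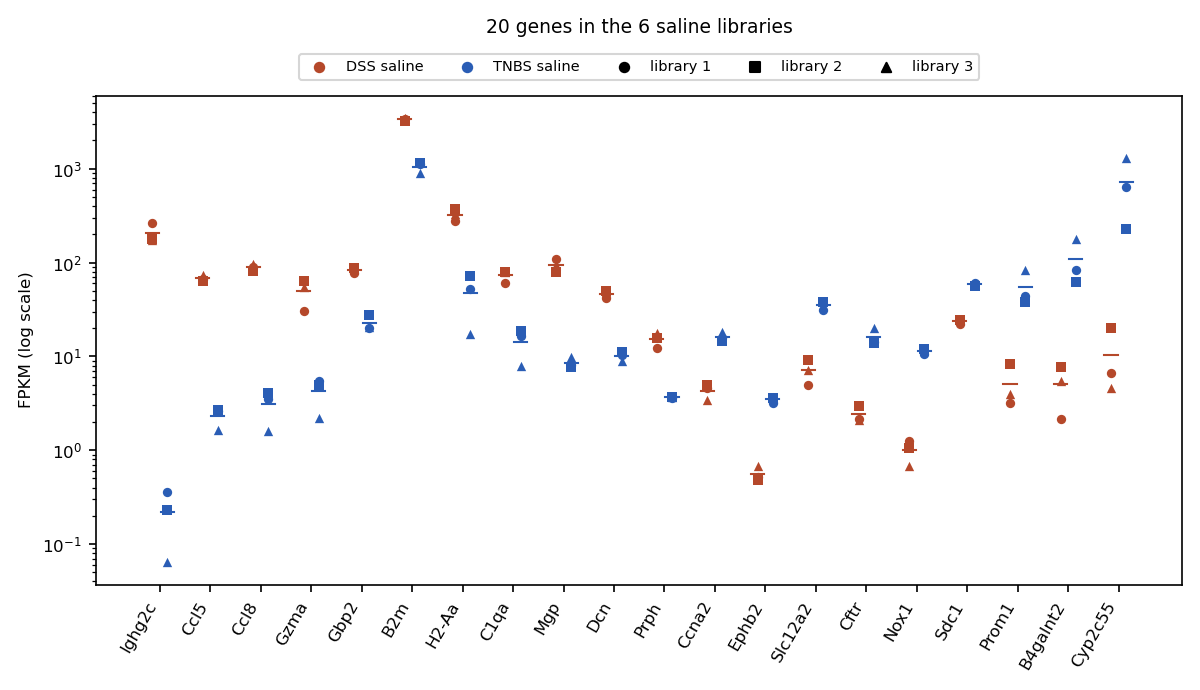
FPKM on a log scale of 20 named genes in the 6 saline libraries; point shapes mark the library number, colours the model and short bars the group means of 3. From Ighg2c to Prph every DSS library lies above every TNBS library, and from Ccna2 to Cyp2c55 below.

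Innate effector genes gave a mixed picture. Mcpt1, a mast cell protease of mucosa, measured 14.6, 30.3 and 31.8 FPKM in DSS and 6.88, 5.98 and 6.67 FPKM in TNBS libraries, a difference of 1.75 ± 0.28 on the log2 scale (SE; limma adjusted p = 0.00077), and Mcpt2 differed by 1.47. The general mast cell genes Cpa3 and Tpsb2 were under the level threshold in this comparison. The neutrophil list had 15 of 24 genes under the threshold. Against 15.7% of all genes called higher and 31.3% called lower, the list had 5 higher and 1 lower of 9 tested. Its lower member, Cd177, a neutrophil surface protein, measured 24.6, 36 and 32.1 against 104, 126 and 101 FPKM, a difference of -1.81 ± 0.28 on the log2 scale (SE; limma adjusted p = 0.00058). Ly6g, the gene of a neutrophil surface marker with several close relatives in the genome, measured 194, 258 and 308 against 49.6, 76.7 and 3.93 FPKM, a difference of 3.22 ± 0.89 on the log2 scale (SE; limma adjusted p = 0.013). Without TNBS saline 3 that difference was 1.995. Lcn2, which withholds iron from bacteria, measured 3.16, 6.31 and 5.21 against 0.262, 1.48 and 0.145 FPKM, a difference of 1.91 ± 0.28 on the log2 scale (SE; limma adjusted p = 0.00044). Lcn2 passed the level threshold through DSS saline only, so its gap supports nothing about direction. S100a8 and S100a9, the abundant calprotectin genes of neutrophils, were not called at 0.17 and 0.34 (limma adjusted p = 0.67 and 0.47). They did not exceed 4.22 and 3.93 FPKM in any saline library, and Mpo did not exceed 0.0132 FPKM. Cd177 and, outside TNBS saline 3, Ly6g lay far above these levels. Which cells the reads of Cd177 and Ly6g came from was not tested.

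Cytokine genes were mostly low. 15 of 30, among them Il6, Ifng and Il17a, were under the threshold. 6 of the 15 tested were called higher, against 15.7% of all genes. Il22, an inducer of epithelial repair, measured 13.1, 5.59 and 0.969 FPKM in DSS and 0, 0.308 and 0.185 FPKM in TNBS colons, a difference of 2.29 ± 0.54 on the log2 scale (SE; limma adjusted p = 0.0057). DSS libraries varied widely, and the lowest of them was still above the TNBS libraries. Il22 passed the level threshold through DSS saline only, so this gap supports nothing about direction. Socs3, a feedback inhibitor of cytokine signalling, measured 48.2, 28.2 and 23.9 against 7.46, 10.3 and 5.16 FPKM, a difference of 1.97 ± 0.36 on the log2 scale (SE; limma adjusted p = 0.0015). Csf1, the macrophage growth factor, and Il33, an alarm cytokine of stroma and epithelium, differed by 0.86 and 0.60. Ido1, a tryptophan degrading enzyme, differed by 1.15 (adjusted p = 0.019), a call lost without DSS saline 1 or without TNBS saline 3, up to an adjusted p of 0.068.

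Epithelial genes gave the largest differences in the other direction. Cyp2c55, a cytochrome P450 that oxidises arachidonic and linoleic acid in colon, measured 6.59, 20.1 and 4.66 FPKM in DSS and 634, 228 and 1298 FPKM in TNBS libraries, a difference of -5.89 ± 0.59 on the log2 scale (SE; limma adjusted p = 7.8e-05). Group means stood 68.9-fold apart, although TNBS libraries themselves ranged several fold. B4galnt2, a glycosyltransferase of colonic mucins, measured 2.18, 7.78 and 5.47 against 82.8, 62.6 and 179 FPKM, a difference of -4.13 ± 0.48 on the log2 scale (SE; limma adjusted p = 0.00016). Sptssb, a subunit of the enzyme that starts sphingolipid synthesis, measured 0.876, 4.6 and 1.82 against 68.7, 18.2 and 117 FPKM, a difference of -4.12 ± 0.64 on the log2 scale (SE; limma adjusted p = 0.00063). In both genes TNBS saline 3 was the highest library and no DSS library reached the lowest TNBS value. Prom1, found on the apical membrane of crypt cells, measured 3.21, 8.28 and 3.93 against 43.6, 37.7 and 82.7 FPKM, a difference of -3.18 ± 0.38 on the log2 scale (SE; limma adjusted p = 0.00018). Nox1, the superoxide generating oxidase of colonocytes, measured 1.25, 1.05 and 0.687 against 10.7, 11.9 and 11.3 FPKM, a difference of -2.63 ± 0.20 on the log2 scale (SE; limma adjusted p = 2.8e-05), and Duox2, a second epithelial oxidase, differed by -1.01. Nox1 passed the level threshold through TNBS saline only, so its gap supports nothing about direction. Among the 15 genes with the largest negative values were also Cyp2c65 (-4.03), Mep1a (-3.06), Clec2e (-2.99), Myl7 (-2.99), Clca4a (-2.92), Plet1 (-2.88) and Nov (-2.85).

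Some epithelial genes were instead far higher in DSS colitis. S100g, a calcium carrier of absorptive cells, measured 57.4, 120.5 and 76.4 FPKM in DSS and 3.25, 2.67 and 1.74 FPKM in TNBS colons, a difference of 4.55 ± 0.41 on the log2 scale (SE; limma adjusted p = 4.9e-05). Fabp6, the bile acid binding protein typical of ileum, measured 120.4, 56.5 and 88.8 against 7.71, 6.07 and 1.38 FPKM, a difference of 4.02 ± 0.46 on the log2 scale (SE; limma adjusted p = 0.00014). The lowest DSS library stood far above the highest TNBS library for both. Ubd, a ubiquitin-like modifier induced by interferon gamma and tumour necrosis factor, measured 165, 218 and 205 against 14.7, 25.4 and 5.25 FPKM, a difference of 3.83 ± 0.54 on the log2 scale (SE; limma adjusted p = 0.00038). Upp1, which breaks down uridine, measured 263, 245 and 292 against 28.9, 39.6 and 14.8 FPKM, a difference of 3.32 ± 0.41 on the log2 scale (SE; limma adjusted p = 0.00021). Atp12a, the colonic proton pump, measured 93.5, 132 and 134 against 29, 46.4 and 0.457 FPKM, and its log2 fold change of 3.22 became 1.66 without TNBS saline 3. Its call was lost without any 1 DSS saline library (adjusted p up to 0.072), with no level threshold and with the 6 saline libraries alone. On the small intestinal list 3 of 8 tested genes were higher and 4 lower, against 15.7% and 31.3% of all genes. The lower ones included the sugar transporter Slc5a1 (-0.99) and the lipoprotein gene Apob (-1.15). On this list 10 of 18 were under the threshold. Without DSS saline 3, and likewise without TNBS saline 1, 4 of the tested genes on this list were called.

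Ion and water transport genes of colonocytes were lower in DSS colons for a majority of members. 14 of 26 were called lower, against 31.3% of all genes, and 1 higher, with a median of -0.72 (-0.59 relative to all genes). Cftr, the chloride channel of crypt secretion, measured 2.16, 2.97 and 2.1 FPKM in DSS and 14.1, 13.8 and 20.2 FPKM in TNBS libraries, a difference of -2.31 ± 0.20 on the log2 scale (SE; limma adjusted p = 4.1e-05). Slc12a2, which loads crypt cells with chloride, measured 4.99, 9.13 and 7.21 against 31.6, 38.4 and 34.7 FPKM, a difference of -2.17 ± 0.21 on the log2 scale (SE; limma adjusted p = 6.8e-05). Neither gene overlapped between the groups. The potassium channels Kcnn4 and Kcnq1, which sustain that secretion, differed by -0.95 and -1.35, and the potassium chloride cotransporter Slc12a7 by -1.01. In contrast, the surface exchanger Slc26a3 and the water channel Aqp8 were not called, at 0.02 and -0.47 (adjusted p = 0.95 and 0.2).

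Goblet cell genes were called lower at a share (37.0%) near that of all genes. 10 of 27 were called lower and none higher, against 31.3% of all genes called lower, with a median of -0.58 (-0.44 relative to all genes, -0.72 without TNBS saline 3). Without DSS saline 2 the median was -0.37, or -0.21 relative to all genes. Muc2, the gel forming mucin, measured 366, 368 and 389 FPKM in DSS and 1250.2, 1129.9 and 1779 FPKM in TNBS libraries, a difference of -1.86 ± 0.30 on the log2 scale (SE; limma adjusted p = 0.00079). C1galt1, which builds the core sugar of mucins, measured 26.2, 30.5 and 30.4 against 60.4, 59.5 and 63.4 FPKM, a difference of -1.05 ± 0.10 on the log2 scale (SE; limma adjusted p = 7.2e-05). The DSS values of both lay in a narrow band below the TNBS values. Its chaperone C1galt1c1 (-0.78), the sugar transferase Galnt12 (-1.27), the membrane mucin Muc4 (-2.21) and Atoh1 (-1.19), the factor that sets secretory fate, were lower as well. Tff3, Clca1 and Fcgbp, secreted products of mature goblet cells, were not called, at 0.91, -0.15 and -0.04. In the Nxpe, Clca and Ceacam families 6 of 11 were lower, including Nxpe2 (-1.98), Ceacam1 (-1.26) and Ceacam10 (-1.23), and 1, Clca3a1, was higher (0.90).

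Cell cycle genes were lower in DSS colitis almost throughout. 30 of 34 were called lower and none higher, against 31.3% and 15.7% of all genes. The list median was -0.99 (-0.85 relative to all genes). Ccna2, the cyclin of DNA synthesis and entry into mitosis, measured 4.56, 4.96 and 3.45 FPKM in DSS and 15.7, 14.8 and 18.2 FPKM in TNBS colons, a difference of -1.70 ± 0.17 on the log2 scale (SE; limma adjusted p = 8.6e-05). Top2a, which untangles replicated DNA, measured 2.9, 3.95 and 2.24 against 11.1, 10.2 and 13.2 FPKM, a difference of -1.65 ± 0.18 on the log2 scale (SE; limma adjusted p = 0.00012). Ccnb2, a mitotic cyclin, measured 6.94, 6.83 and 4.53 against 17.3, 18.2 and 20.8 FPKM, a difference of -1.49 ± 0.19 on the log2 scale (SE; limma adjusted p = 0.00022). Every DSS library lay below every TNBS library for these genes. Plk1 (-0.92), Cenpa (-1.17) and Kif20a (-1.46), which act at spindle and centromere, were lower too. The exceptions were Ccne1, E2f1, Ccnd1 and Tyms, which were not called at -0.16, -0.20, -0.30 and -0.35. With array weights, which let libraries count unequally, these 4 were called lower as well (adjusted p = 0.00046 to 0.017). The summed FPKM of the list was 108 to 155 in DSS saline and 263 to 309 in TNBS saline.

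Promoters of mitotic genes carry CCAAT boxes and a cell cycle homology region. Of the 28 members with a RefSeq promoter entry, 23 (82.1%) held CCAAT on either strand in the 250 bases before the start, against 37.5% of all genes, and 8 (28.6%) held TTTGAA, against 18.3%. Ccnb2 (chr9:70421555-70421804 on the minus strand) and Top2a (chr11:99024190-99024439 on the minus strand) are shown, from the same RefSeq build, because both motifs occur in each. Capitals mark the matches on either strand.
Ccnb2: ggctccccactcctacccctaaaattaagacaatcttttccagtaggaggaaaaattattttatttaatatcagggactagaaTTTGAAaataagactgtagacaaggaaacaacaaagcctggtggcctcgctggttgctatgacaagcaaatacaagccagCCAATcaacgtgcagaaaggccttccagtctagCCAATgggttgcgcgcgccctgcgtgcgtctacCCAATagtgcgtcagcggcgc
Top2a: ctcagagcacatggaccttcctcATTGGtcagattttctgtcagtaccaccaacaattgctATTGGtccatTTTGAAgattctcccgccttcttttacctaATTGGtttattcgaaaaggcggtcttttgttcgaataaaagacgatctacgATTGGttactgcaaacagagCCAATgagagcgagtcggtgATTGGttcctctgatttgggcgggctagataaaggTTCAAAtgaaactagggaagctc
The Ccnb2 stretch held 4 matches and the Top2a stretch 8.

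Stem cell and Wnt target genes were mostly lower as well. 9 of 14 were called lower and 1 higher, against 31.3% and 15.7% of all genes. 6 further genes, among them Lgr5 and Ascl2, were under the threshold. Ephb2, a receptor that positions cells along the crypt, measured 0.515, 0.477 and 0.677 FPKM in DSS and 3.19, 3.6 and 3.74 FPKM in TNBS libraries, a difference of -1.54 ± 0.13 on the log2 scale (SE; limma adjusted p = 4e-05). Axin2, a feedback inhibitor and target of Wnt signalling, measured 0.595, 1.13 and 0.646 against 3.17, 3.05 and 4.52 FPKM, a difference of -1.35 ± 0.17 on the log2 scale (SE; limma adjusted p = 0.0002). Both genes were low, with DSS means under 1 FPKM, and passed the level threshold through TNBS saline only. Their separation therefore supports nothing about direction. Ephb3 (-1.08) and Hopx (-1.19) were lower as well. The higher member was Nkd1, an inhibitor of Wnt signalling, at 3.74, 3.35 and 3.96 against 0.941, 0.489 and 1.74 FPKM, a difference of 1.23 ± 0.21 on the log2 scale (SE; limma adjusted p = 0.00092).

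Junction and metabolic genes were lower in smaller steps. 11 of 19 junction genes were called lower and 2 higher, against 31.3% and 15.7% of all genes. Cldn15, a claudin that passes sodium, measured 5.36, 8.96 and 4.51 FPKM in DSS and 40.4, 33.2 and 67.4 FPKM in TNBS colons, a difference of -2.71 ± 0.33 on the log2 scale (SE; limma adjusted p = 0.0002). Cdh1, the adhesion protein that all epithelial cells carry, measured 144, 149.9 and 161 against 273, 288 and 261 FPKM, a difference of -0.85 ± 0.11 on the log2 scale (SE; limma adjusted p = 0.00021). Higher were Cldn5, an endothelial claudin (2.01), and Cldn3 (0.49), whose value was 0.17 after quantile normalization, without a call (adjusted p = 0.31). Of 27 fatty acid oxidation genes, 14 were lower, such as Hadh (-0.78), Ehhadh (-0.92), Acadm (-0.72) and Acat1 (-0.55), and 2 higher, including Acadl (0.87). Of 25 cholesterol synthesis genes, 8 were lower, near the background share, including Stard4 (-1.12), and none was higher. Glutathione transferases split, with Gstm3 and Gsta3 at -1.70 and -1.24 and Gstt1 at 0.88. All 13 protein genes of the mitochondrial genome were higher, between 0.53 and 0.94, as mt-Nd3 was (0.94). These calls depended on the scaling: after quantile normalization 1 of the 13 was called and the list median relative to all genes was 0.09, against 0.83 as deposited. With no level threshold 4 of the 13 were called.

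**Figure D3:**
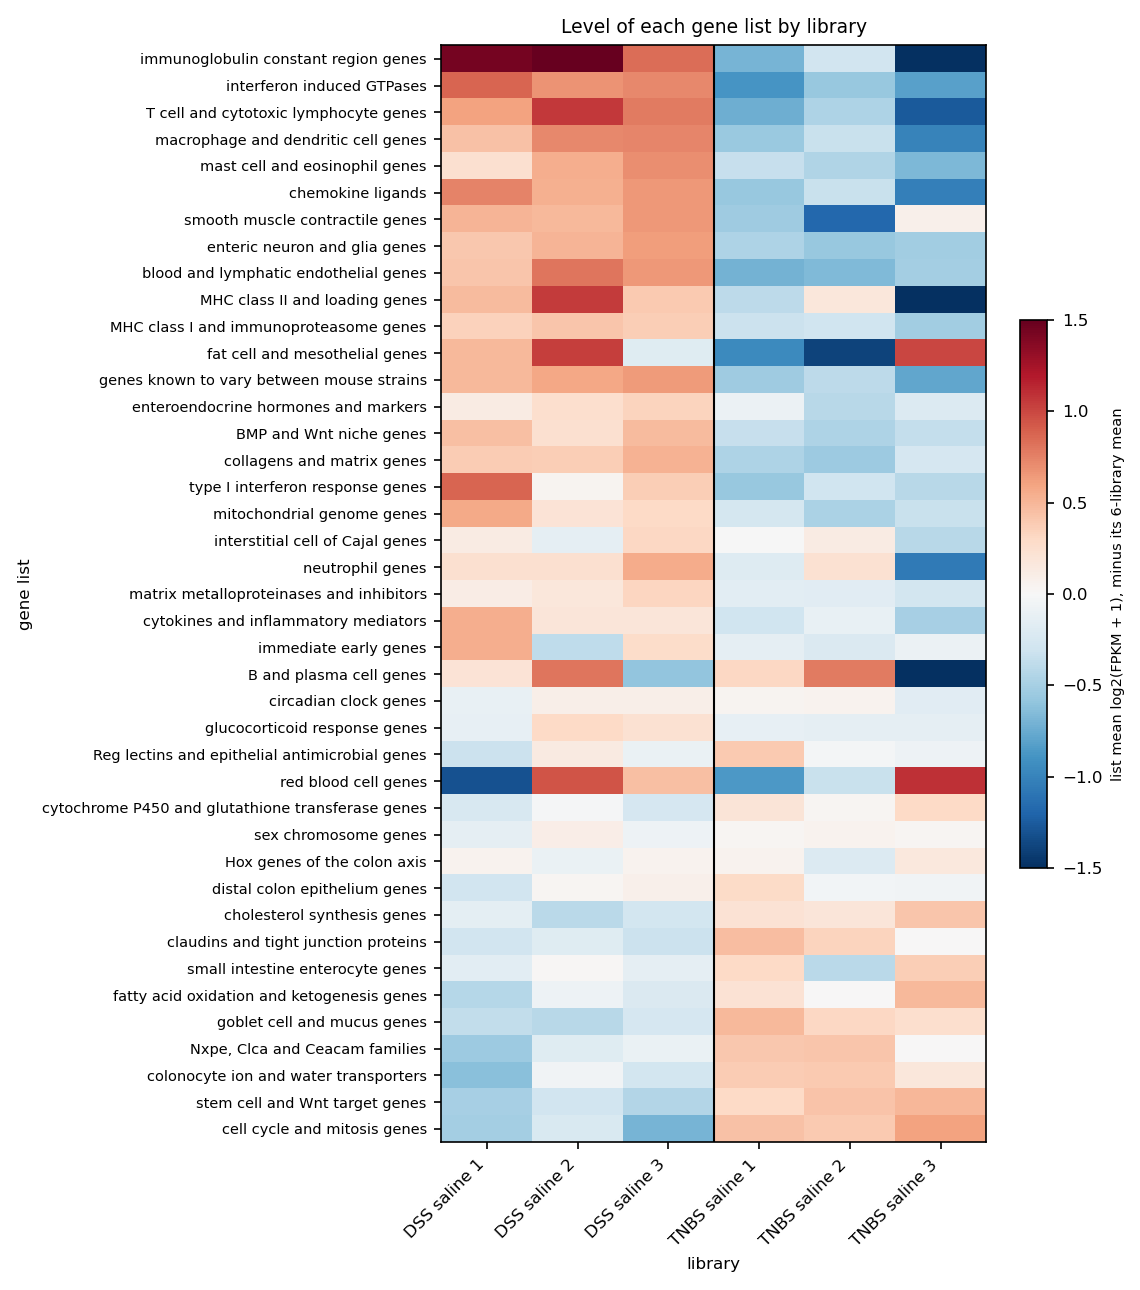
Mean log2(FPKM + 1) of the tested members of each list in each saline library, as the difference from the list's mean over the 6 libraries; red is above that mean and blue below, the colour scale ends at 1.5 in either direction, and a black line parts the models. B and plasma cell and MHC class II lists are lowest in TNBS saline 3, and smooth muscle genes are lowest in TNBS saline 2.

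Genes of the deeper bowel wall were higher in DSS colons. Smooth muscle contractile genes were called higher in 16 of 23 cases and lower in none, against 15.7% and 31.3% of all genes. The list median was 1.20, or 1.33 relative to all genes. The median log2 fold change was 0.80 when TNBS saline 2 was left out and 1.63 when TNBS saline 3 was, the libraries lowest and highest for muscle within their group. Ppp1r14a, an inhibitor of the phosphatase that relaxes muscle, measured 32.4, 34 and 41.7 FPKM in DSS and 6.55, 5.03 and 7.09 FPKM in TNBS libraries, a difference of 2.36 ± 0.20 on the log2 scale (SE; limma adjusted p = 4.1e-05). Tagln, an actin binding protein of smooth muscle, measured 952, 767 and 850.1 against 305, 173 and 450.4 FPKM, a difference of 1.57 ± 0.29 on the log2 scale (SE; limma adjusted p = 0.0017). Lmod1, Pgm5 and Tpm2 differed by 1.63, 1.56 and 1.49. Enteric neuron and glia genes were called higher in 20 of 22 cases and lower in 1. Prph, the filament protein of peripheral neurons, measured 12.4, 15.8 and 17.6 against 3.63, 3.73 and 3.72 FPKM, a difference of 1.78 ± 0.20 on the log2 scale (SE; limma adjusted p = 0.00014), with TNBS libraries almost identical. Snap25 of synapses and Stmn2 of axons differed by 1.22 and 1.27. The lower member was Erbb3, a receptor that epithelium and glia share, at -1.22. Summed FPKM was 4515 to 5196 in DSS saline and 1198 to 3434 in TNBS saline for the muscle list and 165 to 214 in DSS saline and 101 to 109 in TNBS saline for the nerve list. How far the amount of muscle wall in each sample moves with the other lists was not tested.

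Matrix and vessel genes were also higher, and niche and matrix protease genes in part. 25 of 33 matrix genes were called higher and none lower, against 15.7% and 31.3% of all genes. The list median was 0.79, or 0.93 relative to all genes. Mgp, an inhibitor of calcification made by stroma, measured 108, 79.9 and 95.2 FPKM in DSS and 8.16, 7.63 and 9.96 FPKM in TNBS colons, a difference of 3.31 ± 0.15 on the log2 scale (SE; limma adjusted p = 1.5e-06). Dcn, a small proteoglycan of fibroblasts, measured 42.2, 49.5 and 48.2 against 10.3, 11 and 8.84 FPKM, a difference of 2.11 ± 0.10 on the log2 scale (SE; limma adjusted p = 1.7e-06). Both had gaps between the groups wider than the spread within either. Postn (1.53), Lum (1.24) and Thbs2 (1.37), other stromal proteins, were higher, whereas Col1a1, the main fibrillar collagen, was not called at 0.40 (adjusted p = 0.081), although it was after quantile normalization and median-ratio rescaling (adjusted p = 0.026 and 0.024). Of 14 tested metalloproteinases and their inhibitors, 6 were called higher and 3 lower. The inhibitors Timp3 and Timp2 were among the higher (1.84 and 1.59). Of 18 tested BMP and Wnt niche genes, 9 were called higher and 3 lower. Rspo3, an amplifier of Wnt signalling, measured 5.01, 3.43 and 4.11 against 0.772, 0.448 and 0.889 FPKM, a difference of 1.60 ± 0.15 on the log2 scale (SE; limma adjusted p = 5.4e-05). Rspo3 passed the level threshold through DSS saline only, so its gap supports nothing about direction. The Wnt inhibitors Sfrp1 (1.61) and Dkk3 (1.71) were also higher. All 15 tested endothelial genes were called higher, against 15.7% of all genes. The list was low, with a summed FPKM of 79.9 to 108.8 in DSS saline and 25.5 to 33.4 in TNBS saline. At a threshold of 5 FPKM, 3 of its genes were tested and 3 called. Members that passed the level threshold through DSS saline only support nothing about direction. Lyve1, a hyaluronan receptor of lymphatic vessels, measured 9.64, 20.8 and 18.1 against 1.78, 2.07 and 1.03 FPKM, a difference of 2.67 ± 0.27 on the log2 scale (SE; limma adjusted p = 8.3e-05). Pdpn, Flt4 and Sox18, of lymphatic or young vessels, differed by 1.46, 1.46 and 1.24.

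Peptide hormone genes were divided. 7 of 14 tested were called higher and 1 lower, against 15.7% and 31.3% of all genes. Sst, the gene of somatostatin, measured 21, 24.9 and 31.1 FPKM in DSS and 10.6, 10.8 and 9.15 FPKM in TNBS libraries, a difference of 1.24 ± 0.20 on the log2 scale (SE; limma adjusted p = 0.00069). Tac1, which encodes substance P, measured 15.4, 14.7 and 26.1 against 6.23, 7.04 and 4.18 FPKM, a difference of 1.51 ± 0.24 on the log2 scale (SE; limma adjusted p = 0.00067). The granule proteins Scg2, Scg3 and Scg5 differed by 1.48, 1.14 and 1.06. Neurons also make these products. Pyy, a hormone gene used here as an enteroendocrine marker, was at 254.6, 232.3 and 246.2 FPKM in DSS libraries. In TNBS libraries Pyy was at 101.3, 124 and 41.7 FPKM, without overlap. The epithelial granule gene Chga was not called at -0.14, and Chgb was the lower member at -0.89. The call of Chgb was lost without DSS saline 1, in a fit of the 6 saline libraries alone and under median-ratio rescaling, and also without TNBS saline 3, where its value was -0.59.

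Hox genes keep a memory of position along the gut. Of 18 tested Hox genes, 1 was called higher and 5 lower, shares of 5.56% and 27.8% that lie below the 15.7% and 31.3% of all genes. Hoxa13, of the hindgut end, measured 22, 28.1 and 23.7 FPKM in DSS and 23.2, 22.3 and 21.6 FPKM in TNBS libraries, a difference of 0.12 ± 0.12 on the log2 scale (SE; limma adjusted p = 0.41). Hoxb13, the most posterior gene of its cluster, measured 52.8, 59.9 and 65.4 against 50.04, 86.9 and 0.722 FPKM, a difference of 1.60 ± 1.11 on the log2 scale (SE; limma adjusted p = 0.26). TNBS saline 3 alone was low for it, and that library was the highest of the 6 for Hoxb6 (16 FPKM), Hoxb7 (6.25 FPKM) and Hoxa11 (8.01 FPKM). Hoxd13 measured 23.6, 7.06 and 15.3 against 2.8, 1.55 and 0 FPKM, a difference of 2.79 ± 0.57 on the log2 scale (SE; limma adjusted p = 0.0027). DSS libraries lay above TNBS libraries for Hoxd13 and below them for Hoxa9, at 6.54, 7.64 and 6.5 against 18.3, 14.9 and 21.1 FPKM, a difference of -1.27 ± 0.15 on the log2 scale (SE; limma adjusted p = 0.00017). Hoxa6, Hoxb9, Hoxa3 and Hoxa10 were lower by smaller amounts (-1.01, -0.53, -0.50 and -0.44), and the call of Hoxa10 was lost under quantile normalization and median-ratio rescaling. The level threshold kept 18 further Hox genes out. The rest, Hoxa2 (-0.20), Hoxa5 (0.02), Hoxa7 (-0.35), Hoxa11 (-0.29), Hoxb3 (0.00), Hoxb4 (0.31), Hoxb5 (0.28), Hoxb6 (-0.80), Hoxb7 (-0.56) and Hoxd10 (0.83), were not called. Hoxa7, Hoxb4, Hoxb5, Hoxb6, Hoxb7 and Hoxd10 gained a call under some setting or without some library. The stretch of colon and the model cannot be told apart for these genes.

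**Figure D4:**
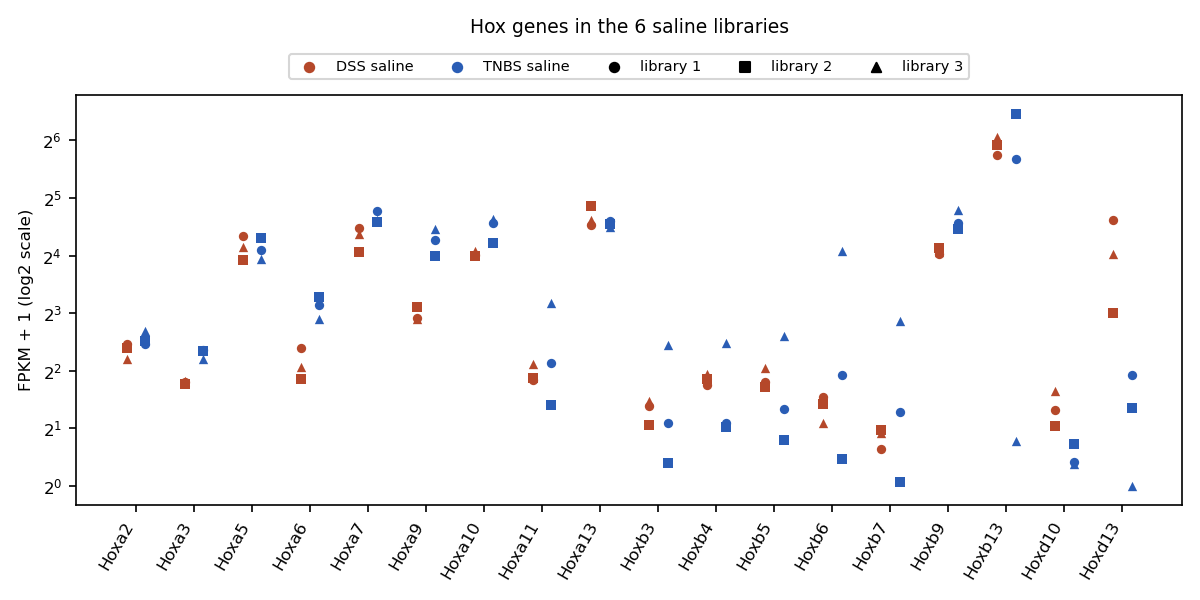
FPKM + 1 on a log2 scale of the 18 tested Hox genes in the 6 saline libraries; colours mark the model and shapes the library number. TNBS saline 3 (blue triangles) is low for Hoxb13 and Hoxd13 and high for Hoxb3 to Hoxb7.

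Clock genes, whose levels follow the hour of day, were called about as often as all genes (47.1%): 4 of 16 were called higher and 4 lower. Arntl and Clock encode the activating pair of the clock. Arntl measured 3.65, 3.01 and 3.46 FPKM in DSS and 7.38, 7.36 and 7.83 FPKM in TNBS libraries, a difference of -0.96 ± 0.15 on the log2 scale (SE; limma adjusted p = 0.00065), and Clock measured 2.5, 1.32 and 2.03 against 5.57, 6.41 and 5.77 FPKM, a difference of -1.25 ± 0.14 on the log2 scale (SE; limma adjusted p = 0.00012). Neither overlapped between groups. The repressor Cry1 was lower (-0.97) and Cry2 also (-0.64), whereas Dbp, an output gene of opposite phase to Arntl, was higher at 1.82, 5.53 and 4.53 against 0.952, 0.836 and 0.624 FPKM, a difference of 1.38 ± 0.33 on the log2 scale (SE; limma adjusted p = 0.0068). Dbp passed the level threshold through DSS saline only, so its gap supports nothing about direction. Nr1d1 (1.15), Per1 (0.64) and Usp2 (0.64) were called higher, and the genes not called included Per2, Per3, Nr1d2, Tef, Nfil3, Bhlhe40 and Npas2. The call of Cry2 was lost without DSS saline 1. The calls of Nr1d1 and Per1 were lost without any of several saline libraries, up to adjusted p = 0.11 and 0.083, and without TNBS saline 3 the value of Nr1d1 was 0.73. Hours of collection are not stated, so model and hour cannot be told apart.

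Further lists showed no common direction, and 47.1% of all genes were called. On a list of distal colon epithelial genes 4 of 15 were called higher, including the gasdermins Gsdmc2 (1.12), Gsdmc3 (1.09) and Gsdmc4 (1.25), near-identical neighbours, and 2 lower. The call of Gsdmc2 was lost without DSS saline 1 or 3 or TNBS saline 1 or 2 (adjusted p up to 0.092), with no level threshold and after quantile normalization. Immediate early genes, which respond within minutes to handling and stimulation, were called higher in 3 of 24 cases, such as Klf2 (1.36), and lower in 3, such as Klf6 (-0.79). Glucocorticoid response genes were called higher in 5 of 14 and lower in 2, the receptor Nr3c1 among the lower (-0.78) and Hsd11b1, which regenerates active hormone, among the higher (1.04). On the distal colon list 10 genes were called without TNBS saline 2 and 4 without DSS saline 3, on the glucocorticoid list 4 without DSS saline 3 or without TNBS saline 3, and on the immediate early list 13 without DSS saline 2. Of 8 fat and mesothelial genes, Fabp4 and Plin4 were higher (1.76 and 1.19) and Pparg, which colonocytes also express, lower (-1.34). Fabp4 was close to the threshold (adjusted p = 0.046): its call was lost when any 1 of 10 libraries was left out (adjusted p up to 0.16), with no level threshold, with the 6 saline libraries alone and with the replicate block (adjusted p = 0.0551), and its value was 2.68 without TNBS saline 3, where 5 genes of the list were called.

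Of 12 tested genes known to differ between mouse strains, 6 were called higher in DSS and 2 lower, against 15.7% and 31.3% of all genes. Calls in either direction made up 66.7% of this short list, against 47.1% of all genes, and that gap was not tested. Ighg2c, the antibody gene that some strains carry in place of Ighg2a, measured 265, 178 and 174 FPKM in DSS and 0.361, 0.229 and 0.0638 FPKM in TNBS libraries, a difference of 7.39 ± 0.31 on the log2 scale (SE; limma adjusted p = 1.4e-06). It was the largest positive value among the named genes, and the thymopentin groups repeated it at 114, 152 and 187 against 0.233, 2.01 and 0.45 FPKM. Ighg2c passed the level threshold through DSS saline only, so its gap under saline supports nothing about direction. Ly6c1, a surface protein of vessels and leukocytes with several close relatives, measured 64.3, 70.7 and 107 against 11.1, 12 and 6.42 FPKM, a difference of 2.92 ± 0.24 on the log2 scale (SE; limma adjusted p = 3.3e-05). Ide, a peptide degrading enzyme, measured 3.8, 4.57 and 4.04 against 10.2, 8.46 and 14 FPKM, a difference of -1.19 ± 0.15 on the log2 scale (SE; limma adjusted p = 0.00023). Ly6a (1.20), Trim12a (0.71), Cd59a (1.19) and Nnt (1.22, adjusted p = 0.0498) were called higher and Glo1 lower (-0.56), whereas Wdfy1, Entpd4, Nlrp1b and Pla2g2a were not called (-0.04, -0.20, -0.07 and 1.04). The call of Nnt was lost when any of 9 libraries was left out. H2-Ea-ps, read in some strains and silent in others, did not exceed 0.054 FPKM in any library. Since the strain is not stated, model and strain cannot be told apart. In all 6 saline libraries Y-linked genes were present (Eif2s3y between 18.4 and 22.3 FPKM) and Xist did not exceed 0.0103 FPKM.

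The same 2 models under thymopentin gave a second contrast from separate libraries. It called 3785 genes (27.6%), 1529 higher in DSS (11.1%) and 2256 lower (16.4%). 911 genes were higher in both contrasts, 42.2% of those higher under saline and 59.6% of those higher under thymopentin. 1869 were lower in both, or 43.5% and 82.8%. Calls in opposite directions were made for 13 genes higher in DSS under saline and 31 genes lower in DSS under saline. The test of the difference between the contrasts called 726 genes (5.29%). Immune lists kept their side: the medians under thymopentin were 1.78 for the GTPases, 1.79 for T cell genes and 1.06 for macrophage genes, and the difference was called for 3, 0 and 1 of their members. Type I interferon genes were higher in all 29 cases under thymopentin, with a median of 1.84 and 14 differences called.

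Wall and cell cycle lists behaved otherwise. Under thymopentin the median was -0.21 for smooth muscle, -0.01 for neuron and glia, -0.22 for matrix and -0.31 for hormone genes. The difference between contrasts was called for 4 of 23, 14 of 22, 16 of 33 and 6 of 14 members, against the 5.29% of all genes. Prph measured 7.98, 5.3 and 8.97 FPKM in DSS thymopentin and 7.09, 4.71 and 8.02 FPKM in TNBS thymopentin, and these groups overlapped. Cell cycle genes had a median of -0.33 there, with 10 of 34 called lower, against 16.4% of all genes, and 14 differences called. The smallest p of that test belonged to Crispld2, a secreted protein induced by glucocorticoids, which measured 0.435, 0.376 and 0.366 FPKM in DSS thymopentin and 2.34, 3.68 and 3.18 FPKM in TNBS thymopentin, against 6.31, 7.1 and 8.38 and 1.77, 1.59 and 2.01 FPKM under saline. Its contrast thus turned from 1.56 to -1.53 (limma adjusted p of the difference = 0.00012). Mmp7, a protease of injured epithelium, measured 6.56, 4.56 and 4.23 FPKM in TNBS saline and at most 0.254 FPKM in each of the other 9 libraries. Mmp7 passed the level threshold through TNBS saline only. Acer1, a ceramidase, and Ncoa1, a nuclear receptor coactivator, differed under saline (-2.12 and -1.18) and were not called under thymopentin (-0.26 and 0.05).

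**Figure D5:**
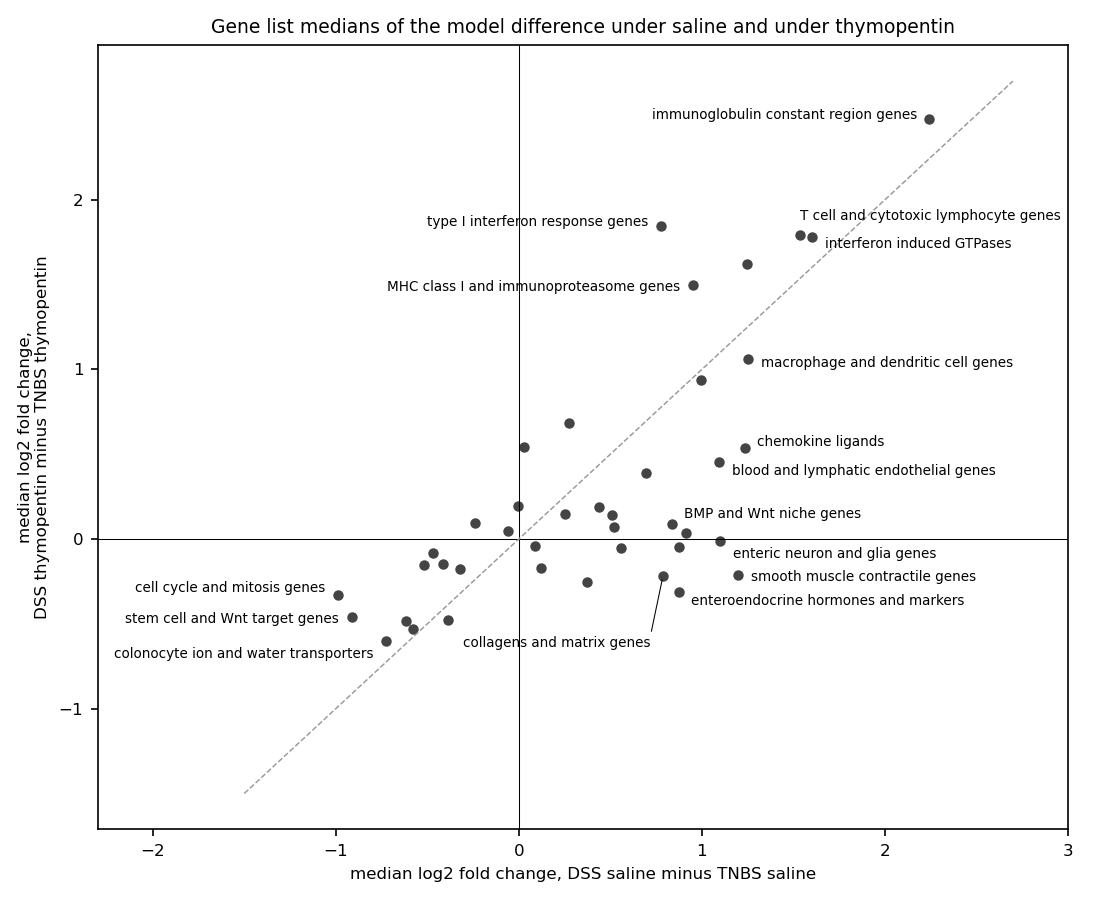
Median log2 fold change of each gene list with at least 4 tested members, DSS minus TNBS, under saline (horizontal) and under thymopentin (vertical); the dashed line marks equal medians. The T cell, interferon GTPase, type I interferon and immunoglobulin lists lie above that line, and muscle, nerve, matrix and hormone lists lie at or below 0 on the vertical axis.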

How the data were processed

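RNA of mouse colon was extracted with TRIzol and sequenced from strand-specific TruSeq libraries, per the labels' protocols. Gene values are FPKM computed by the authors; FastQC, STAR 2.5, Cuffnorm, DESeq 1.22.1 and the mm9 build are named in the submitters' processing notes, without roles. The deposited tables of selected genes hold log2 values of size-factor scaled read counts, as their low-value steps show: 3536 of 3536 low values were whole reads within 0.01 reads, and they served here only to estimate depth. FPKM itself gives no counts, so no count test was run.

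Genes with a mean of at least 1 FPKM over the 6 saline libraries were tested in limma 3.58.1 (R 4.3.3) on log2(FPKM + 1), with 4 group means over 12 libraries (8 residual degrees of freedom), empirical Bayes with trend and Benjamini-Hochberg adjustment, called at an adjusted p under 0.05. The pseudocount shrinks the fold change of low genes. An exact permutation test of 3 against 3 cannot go below p = 0.1. Nothing in the labels says that the libraries of a group came from separate animals, so p-values measure the spread between these libraries. No library pair held identical values.

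Genes were named by rule: the 15 largest and 15 smallest called differences without overlap, leaving out unnamed gene models and variable segments; up to 5 called members with the smallest p in each list; all Hox, clock and strain genes; and the 5 smallest p of the difference between contrasts. Of these, the text gives 189 with values, and 19 others were added as defining members or after their values were seen (Aqp8, Ccnb2, Ccnd1, Ccne1, Chga, Chgb, Clca1, Cldn3, Col1a1, E2f1, Fcgbp, Igtp, Muc2, Nkd1, S100a8, S100a9, Slc26a3, Tff3 and Tyms). The genes compared and the lists were chosen with earlier results of these data known. Some genes that the rule names are not reported here. Promoter sequences are RefSeq's, of GRCm38.p6; gene positions in mm9 are not analysed here. Alternatives covered the pseudocount, the level threshold, scaling, weights, the libraries fitted and leaving out each library.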

Additional observations from a re-analysis of the deposited data

Results flagged for a closer look

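The 59 genes below are those given with values in the text whose DSS minus TNBS difference was not the same under saline and under thymopentin, by limma's test of the difference between the contrasts at an adjusted p under 0.05. Each value is the saline log2 fold change minus the thymopentin log2 fold change. Which genes are listed follows from which were named, and 5.29% of all genes tested passed the same test.

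Among stromal, vessel, niche and macrophage genes the difference between the contrasts was Mgp (1.98), Dcn (1.34), Lum (1.30), Postn (1.22), Thbs2 (1.29), Timp2 (1.35), Timp3 (1.52), Dkk3 (1.68), Sfrp1 (1.51), Rspo3 (1.02), Pdpn (1.13), Cldn5 (1.23), Ccl11 (1.32), Ccl21b (2.10), Mrc1 (0.65) and Crispld2 (3.10). All were higher in DSS under saline, with smaller values under thymopentin, and Crispld2 and Lum had the opposite sign there. For muscle, nerve and hormone genes it was Lmod1 (1.74), Pgm5 (1.77), Ppp1r14a (1.58), Prph (1.63), Snap25 (1.38), Stmn2 (1.21), Scg2 (1.76), Scg3 (1.12), Scg5 (1.41), Sst (1.80) and Tac1 (1.48). Interferon and antigen presentation genes were higher in DSS in both contrasts and by less under saline, with differences for Isg15 (-2.24), Ifi27l2a (-1.99), Ido1 (-2.24), Bst2 (-1.52), Igtp (-1.31), Psmb9 (-0.89), B2m (-0.82) and H2-T23 (-0.68). Cell cycle and crypt genes differed by Ccnb2 (-1.56), Ccna2 (-1.27), Cenpa (-1.23), Top2a (-1.12), Kif20a (-0.88), Plk1 (-0.80) and Hopx (-0.93), all lower in DSS under saline and nearer to 0, or just above it for Ccnb2 and Cenpa, under thymopentin. The other genes were Acer1 (-1.85), Cftr (-1.96), Clock (-0.89), Erbb3 (-0.89), Gsta3 (-1.10), Gstm3 (-1.80), Hadh (-0.63), Hoxa10 (-0.72), Hoxa6 (-1.20), Hoxa9 (-1.36), Kcnn4 (-1.07), Mmp7 (-2.32), Myl7 (-2.97), Ncoa1 (-1.22), Nox1 (-1.34), Nxpe2 (-2.85) and Prdm1 (-0.81). All of these were lower in DSS under saline. Leaving out 1 library moved the number of genes that pass this test widely, as given among the results that depend on the processing.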

How the results depend on the processing

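The number of genes called between the saline groups stayed within 1.5 times of 6454 under the alternatives except a threshold of 5 FPKM, where 3605 were called of 7035 tested, fewer genes being tested. Leaving out 1 library at a time gave 5380 to 6457 calls under saline, 2038 to 3974 under thymopentin and 178 to 769 for the difference between contrasts. That difference count, 726, was 402 with no level threshold, 381 at 5 FPKM and 2927 with array weights, and the cause was not tested. Lower values came without DSS saline 3 (178), TNBS saline 1 (218), DSS thymopentin 2 (232), TNBS thymopentin 1 (358), DSS thymopentin 3 (361), TNBS saline 2 (401) or TNBS thymopentin 3 (492). The thymopentin count was 2223, 2038 and 2412 without DSS thymopentin 2, DSS thymopentin 3 and TNBS thymopentin 3.

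Of 179 called genes with values in the text, 170 kept their call without any 1 library, 9 lost it without some library, 9 lost it under some other setting, and none changed sign. Many of these genes were named for a large difference or a small p, so they do not stand for all calls. Of all 6454 calls, between 5184 (without DSS saline 1) and 6273 (without TNBS thymopentin 3) were kept when 1 library was left out. The 12 genes not called that gained a call under some setting were Aqp8, Ccnd1, Ccne1, Col1a1, E2f1, Hoxa7, Hoxb4, Hoxb5, Hoxb6, Hoxb7, Hoxd10 and Tyms. Of 41 list medians relative to all genes, 10 changed sign somewhere. At 5 FPKM these were distal colon (0.80), antimicrobial (-0.17), clock (-0.056) and glucocorticoid genes (-0.013); with no threshold, sex chromosome genes (-0.047); at a pseudocount of 0.1, distal colon genes (0.011); and with array weights, B and plasma cell (-0.45), cytochrome P450 and glutathione transferase (-0.13) and Hox genes (0.007). Leaving out 1 library gave ranges that crossed 0: -0.28 to 0.23 for distal colon genes, -0.31 to 0.17 for Hox genes, -0.018 to 0.82 for interstitial cell of Cajal genes, -0.10 to 0.15 for cytochrome P450 and glutathione transferase genes, -0.42 to 0.94 for B and plasma cell genes and -0.26 to 0.83 for red blood cell genes.

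The replicate numbers did not pair the samples: the correlation of deviations was 0.04, 0.07 and 0.12 for same-numbered DSS and TNBS saline libraries, although each library correlated best with its own number, a hint from the data and not the design. With the replicate number as a block, 6377 genes were called under saline, 3559 under thymopentin and 747 for the difference.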
